A study of Sus scrofa with 4 samples.

Results

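The genes described here encode parts of the ubiquitin system: ubiquitin-conjugating enzymes (E2), subunits of cullin-RING ubiquitin ligases (E3) and deubiquitinases. They were chosen by symbol, as coding genes of the pig RefSeq annotation in the families FBXO, FBXW, FBXL, CUL, USP, OTUD, UCHL and UBE2, with SKP1, SKP2 and RBX1, and with 1 USP symbol left out. This set of genes was chosen with earlier results of these data known. Of 161 such genes, 160 lie on a chromosome and could be compared with peaks, among 16303 named coding genes in all. They comprise 32 E2 genes, 71 E3 subunit genes and 57 deubiquitinase genes. The remaining gene, FBXW5, has no chromosome in the annotation and was not analysed here.

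Lactylation of histone H4 at lysine 12 (H4K12la), an acyl mark derived from lactate, was mapped by chromatin immunoprecipitation and sequencing in liver of sows in late gestation. A low (normal) bile acid group and a high bile acid group each gave 1 immunoprecipitated library and 1 input library, 4 samples in total. Both groups are labelled liver, hepatocytes and female; breed, age and the number of sows behind each library are not given in the sources used here. With no replicates, no difference between the groups below has a replicate check, and shares and fragment numbers carry 95% intervals for counting error only.

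Ubiquitin is passed from an activating enzyme to an E2 and then, with an E3 that selects the substrate, to the target protein. In the largest group of E3s a cullin is the scaffold: it holds a RING protein such as RBX1, which recruits the E2, and through an adaptor such as SKP1 it holds an F-box protein, which binds the substrate. Attachment of the ubiquitin-like protein NEDD8 switches cullins on, and deubiquitinases remove ubiquitin again. In liver these enzymes set the turnover of metabolic enzymes, receptors and transcription factors. FBXW7, an F-box protein, is known for marking c-JUN, the factor named in the title of the series, for degradation.

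The high list held 28283 peaks and the low list 5735, so calls were more frequent in the high list for genes in general. Of the 160 members, 102 had a high-list peak within 10 kb of the gene span and 45 had a low-list peak there. A gene-end peak lies within 1 kb of either annotated end of a gene, one of which holds the start site. The annotation used has no strand, so the ends were not told apart, and exons, introns and untranslated regions were not separated. Fold is the enrichment that the authors' caller gives for the summit of a peak relative to its local background. The caller adds 1 to both before dividing, so fold is lower than fragments over the expected number. The q of a peak is the authors' adjusted p-value against the library's own input, and neither value compares the groups. A q under 0.05 was reached by 608 high-list peaks (2.15%) and 13 low-list peaks (0.227%). Peaks that overlap one of the other list made up 0.732% of the high list and 3.63% of the low list. All positions are Sscrofa11.1.

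Gene-end peaks were called at 37 of 160 members in the high list (23.1%; interval 16.8 to 30.4%), against 18.4% of all named coding genes. In the low list, 7 members had one (4.38%; 1.78 to 8.81%), against 3.58% of all genes. No member had a gene-end peak in both lists (0 of 160; 0 to 2.28%), a class that held 0.883% of all genes. The member shares thus lay close to those of all genes, and each interval included the share of all genes. Of the best gene-end folds of the members, the medians were 2.98 (high list) and 2.90 (low list); over all genes with a gene-end peak the medians were 3.01 and 3.0.

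By class, a high-list gene-end peak was called at 9 of 32 E2 genes (28.1%; 13.7 to 46.7%), at 16 of 71 E3 subunit genes (22.5%; 13.5 to 34.0%) and at 12 of 57 deubiquitinase genes (21.1%; 11.4 to 33.9%). The low list had 0 of 32 E2 genes (0 to 10.9%), 6 of 71 E3 subunit genes (8.45%; 3.16 to 17.5%) and 1 of 57 deubiquitinase genes (1.75%; 0.0444 to 9.39%). The intervals of the classes overlapped in both lists and, for each class, included the share of all genes. E3 subunits supplied 6 of the 7 low-list genes, a split of small numbers that was not tested.

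**Figure D1:**
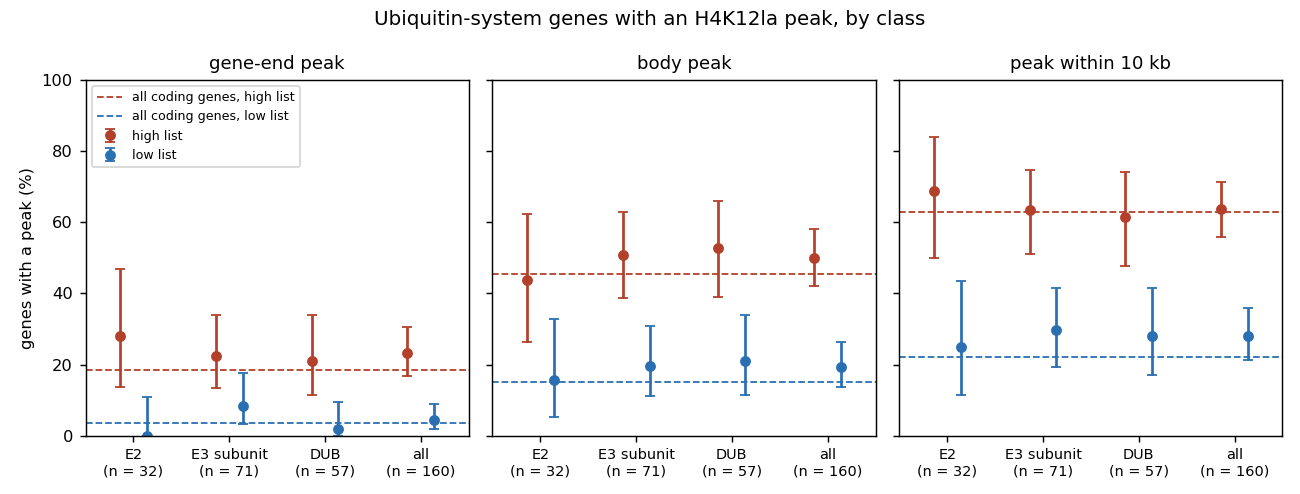
Share of genes with a peak (y axis, %) for each class in the high list (red) and the low list (blue), for gene-end peaks, body peaks and peaks within 10 kb; bars are exact 95% intervals and dashed lines the share of all 16303 named coding genes. The bars reach the dashed line of their list in every class, and no E2 gene has a gene-end peak in the low list.

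Over whole gene bodies, 80 members had a high-list peak (50%; 42.0 to 58.0%), against 45.4% of all genes, and 31 had a low-list peak (19.4%; 13.6 to 26.4%), against 15.1%. In the high list these were 14 E2, 36 E3 subunit and 30 deubiquitinase genes; in the low list they were 5, 14 and 12. Within 10 kb, the 102 members of the high list (63.8%; 55.8 to 71.2%) stood against 62.8% of all genes, and the 45 of the low list (28.1%; 21.3 to 35.8%) against 22%. By class these were 22 E2, 45 E3 subunit and 35 deubiquitinase genes for the high list, and 8, 21 and 16 for the low list. Both lists had a peak within 10 kb at 32 members (20%; 14.1 to 27.0%), against 16.6% of all genes; 70 members had one in the high list only (43.8%), against 46.2%, and 13 in the low list only (8.13%), against 5.42%. The remaining 45 members had none (28.1%; 21.3 to 35.8%). The part of all genes outside these groups lies within that interval. Members are longer than most genes, with a median span of 40.3 kb against 25.6 kb, and longer genes hold more peaks. Of members over 100 kb, 16 of 24 had a high-list body peak (66.7%; 44.7 to 84.4%), against 78.7% of all genes of that length, and 12 of 24 had a low-list one (50%; 29.1 to 70.9%), against 41.2%. Of members of 20 to 100 kb, 54 of 92 had a high-list body peak (58.7%; 47.9 to 68.9%), against 50.6%. Of those under 20 kb, 10 of 44 had one (22.7%; 11.5 to 37.8%), against 27.5%. Low-list body shares were 19.6% against 14.8% for 20 to 100 kb, and 2.27% against 5.19% under 20 kb.

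Peaks were also counted per length of gene. Member bodies held 139 high-list peaks, or 14.2 per Mb of gene span (11.9 to 16.7), against 14.8 per Mb over all named coding genes. They held 40 low-list peaks, or 4.08 per Mb (2.91 to 5.56), against 2.92 per Mb. The high-list density of the members was therefore that of genes in general, and the low-list interval reached down to the value of all genes.

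Chromosome X carries 9 members, among them CUL4B, a cullin scaffold, USP9X and USP11, deubiquitinases, and UBE2A, an E2 of the RAD6 type. No peak of either list lay within 10 kb of any of the 9. Of 609 named coding genes on that chromosome, the high list reached 22 and the low list 3. X-linked genes supply 7 of the 57 deubiquitinase genes, so the shares were read on the 151 autosomal members too. At gene ends 24.5% of these had a high-list peak (17.9 to 32.2%), against 19.1% of all autosomal genes, and 4.64% a low-list peak, against 3.72%. For bodies the shares were 53.0% (44.7 to 61.1%), against 47%, and 20.5% (14.4 to 27.9%), against 15.7%. Within 10 kb they were 67.5% (59.5 to 74.9%), against 65.1%, and 29.8% (22.6 to 37.8%), against 22.9%. The low-list shares thus lay above those of all genes by less than the counting error. By class, the high-list share within 10 kb on autosomes was 70.0% for deubiquitinases (35 of 50), 64.3% for E3 subunits and 71.0% for E2 genes.

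The E2 genes were read first. UBE2V2, which encodes a catalytically inactive E2 variant that pairs with UBE2N to build lysine 63 chains, had the highest gene-end fold of the class. Its high-list peak spans 79653094 to 79654008 on chromosome 4, 592 bp beyond the annotated end. Its fold was 3.69 (q 0.139), from 10 fragments over 1.98 expected. In the low list UBE2V2 had 2 peaks, both inside the gene, with folds of 3.34 and 2.63 (q 1 for both). Peaks thus lay at the gene end in the high library and in the body in the low library. UBE2N, its partner, carried no peak of either list within 10 kb.

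The E2s of NEDD8, UBE2F and UBE2M, which act on cullins, both had a high-list gene-end peak and no low-list peak within 10 kb. UBE2F, at chromosome 15, 137567250 to 137620586, had 6 high-list peaks, of which the gene-end peak had a fold of 3.34 (q 0.181) and the strongest, 4394 bp outside the gene, one of 3.69 (q 0.139). UBE2M had a single peak, of fold 2.60 (q 0.429).

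UBE2O, a large enzyme that joins E2 and E3 activity, tied for the most peaks of any member. It lies at chromosome 12, 5055091 to 5114127, and 7 high-list peaks fell within 10 kb, with folds of 1.91 to 3.25. Of these, 1 lay at each end of the gene, with folds of 2.86 (q 0.326) and 2.83 (q 0.337), and the second also meets an end of SPHK1, the sphingosine kinase gene. UBE2O had no low-list peak within 10 kb. In all, 15 members had at least 4 high-list peaks within 10 kb, or 9.38% of 160, against 10.6% of all genes.

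UBE2T, the E2 of the Fanconi anaemia repair pathway, had a gene-end peak of fold 2.89 (q 0.33) and, 1584 bp inside its short gene, one of 3.64 (q 0.0735), both in the high list. UBE2R2, which extends chains on substrates of SCF ligases, had a gene-end peak of 2.78 (q 0.381). Beyond the other end of the gene, a high-list peak of fold 2.93 and a low-list peak of fold 2.68 lay 469 bp apart without overlap. The remaining gene-end E2s of the high list were UBE2G2 (2.73), UBE2L3 (2.70) and UBE2K (2.03). UBE2G2 works in degradation of proteins from the endoplasmic reticulum, and so do UBE2J1 and UBE2J2, which had peaks of both lists within 10 kb but none in the gene.

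UBE2D3 encodes a broadly acting E2 and carried no peak of either list within 10 kb, and the same held for UBE2D1 and UBE2D4. Only UBE2D2 of this subfamily had any, with 2 high-list peaks of fold 3.02 and 3.17 and none in the low list. The 10 E2 genes without a peak of either list within 10 kb were UBE2A, UBE2B, UBE2C, UBE2D1, UBE2D3, UBE2D4, UBE2E3, UBE2L6, UBE2N and UBE2V1.

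Among the cullins, the scaffolds of the ligases, 6 of 8 had a high-list peak within 10 kb, against 62.8% of all genes, and 4 of 8 a low-list one (50%; 15.7 to 84.3%), against 22%. So few genes leave both counts within counting error of the shares of all genes. CUL1, the scaffold of SCF ligases, had interior peaks in both lists, with folds of 2.70 and 2.08 (high list) and 2.60 (low list). The nearest of them lay 3.69 kb apart. CUL3, which works with BTB-domain adaptors, had 1 interior high-list peak of fold 2.68 (q 0.5) and 2 interior low-list peaks of 3.04 and 2.74 (q 1). In both genes the lists gave peaks of like fold at separate positions.

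CUL2 also had 2 interior peaks in each list, with folds up to 4.03 (high list, q 0.0735) and 2.49 (low list, q 1). CUL7, which pairs with FBXW8, had a high-list gene-end peak at chromosome 7, 38097530 to 38097824, 24 bp beyond the annotated end. The fold there was 3.69 (q 0.139), and the low list had no peak within 10 kb. Its relative CUL9, a p53-binding cullin 108 kb further along, was the reverse at its gene end. There the low list had a peak of fold 2.74 (q 1), 380 bp inside the gene and shared with the end of DNPH1, and the high list had 4 peaks of 2.93 to 3.41, none at a gene end. CUL4A, the scaffold for DDB1-bound substrate receptors, had 4 high-list peaks, of which 1 of fold 3.36 (q 0.232) covers a gene end and also meets an end of PCID2. CUL4B, on chromosome X, and CUL5 had no peak within 10 kb.

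RBX1, the RING subunit, carried no peak of either list within 10 kb. SKP1, the adaptor, had 3 high-list peaks with folds of 2.08, 3.28 and 2.60, the last 2 of them inside the gene. SKP2, an F-box protein known for the degradation of the cell cycle inhibitor p27, had 2 interior high-list peaks of fold 2.34 (q 0.548) and 3.67 (q 0.101). Neither SKP gene had a gene-end peak or a low-list peak.

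The F-box genes are the substrate receptors of SCF ligases. FBXO32, which encodes the atrophy-linked atrogin-1, had the strongest high-list gene-end peak of the E3 subunits. It spans 15894692 to 15895104 on chromosome 4, 771 bp beyond the annotated end. Its fold was 4.31 (q 0.031), from 12 fragments (6.20 to 21.0) over 2.02 expected. It was the single E3 subunit gene with a gene-end q under 0.05. The low list had no peak within 10 kb of FBXO32. Among the F-box genes its fold was followed in the high list by that of FBXO7, a mitophagy gene, with 3.41 (q 0.139) at a peak of 1030 bp that covers a gene end and meets BPIFC. FBXL14, known for degradation of the factor SNAI1, had 3.37 (q 0.168), and FBXL5, the iron sensor that controls IRP2, had 3.36 (q 0.232) beside a stronger flanking peak of 3.69. None of these 3 genes had a low-list peak within 10 kb.

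Other gene-end E3 genes of the high list were FBXO30, FBXO31, FBXO21, FBXO22, FBXL12, FBXL6, FBXO18, FBXO44 and FBXO46, with best gene-end folds from 2.29 to 3.31. FBXO31 had 6 high-list peaks, the most of any E3 subunit gene. FBXO21 had a peak over each of its ends, with folds of 3.02 and 2.29. FBXO44 shares its peak of fold 2.50 with the flanks of FBXO2 and FBXO6, its neighbours on chromosome 6, so that 1 peak gives 3 members a call within 10 kb.

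The low list had its strongest member peak at FBXW11, which encodes beta-TrCP2, the receptor for phosphorylated beta-catenin and the inhibitor of NF-kappaB. It spans 52212139 to 52212586 on chromosome 16 and covers a gene end, with a fold of 4.23 (q 0.598) from 13 fragments (6.92 to 22.2) over 1.94 expected. FBXW11 had no high-list peak within 10 kb. The paralogue BTRC, or beta-TrCP1, is outside the symbol rule and was named after its values were seen. It had a high-list gene-end peak at chromosome 14, 112399758 to 112400166, whose fold was 4.64 (q 0.0106; 13 fragments), a second of 2.60, and no low-list gene-end peak. The interval of the stronger peak starts at 6.92 fragments and the low library needed 7, so its absence from the low list is not decided. Low-list peaks elsewhere within 10 kb of BTRC are not given here.

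FBXW2 had a low-list gene-end peak of fold 3.30 (q 1), 810 bp outside the gene, and FBXO8 one of 3.04 (q 1), 87 bp outside. FBXL22, an F-box gene known from heart muscle in mouse, had one of 2.90 (q 1), 254 bp inside the gene. None of these 3 had a high-list peak within 10 kb. FBXO11, known for degradation of BCL6, had a low-list gene-end peak of 2.45 (q 1) and a high-list interior peak of 4.03 (q 0.0735), 79.5 kb apart. Of the 6 placed FBXW genes, 5 had a low-list peak within 10 kb (83.3%; 35.9 to 99.6%), against 22% of all genes, and 2 had a high-list one (33.3%; 4.33 to 77.7%), against 62.8%. The 5 are FBXW2, FBXW4, FBXW8, FBXW9 and FBXW11. Of the 6 genes, 4 are over 100 kb long, and 3 of these 4 had a low-list peak within 10 kb, against 44.6% of all genes of that length. The shorter FBXW2 (27.5 kb) and FBXW9 (6.37 kb) had one too. In their length bands, 21.3% (20 to 100 kb) and 13.8% (under 20 kb) of all genes did. The interval of the family lies above the 22% of all genes, and it is not adjusted for length. This family was picked out after its values were seen, from 9 families read in 2 lists. Of the 36 FBXO genes, 24 had a high-list peak within 10 kb (66.7%; 49.0 to 81.4%) and 6 a low-list one (16.7%; 6.37 to 32.8%), close to the 62.8% and 22% of all genes.

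FBXW7 was the sixth FBXW gene. It spans 217 kb of chromosome 8, 76482027 to 76699354, and carried no peak of either list within 10 kb. Of all genes over 100 kb, 82.4% had a high-list peak within 10 kb and 44.6% a low-list one. USP15 and USP47 on autosomes and USP9X on chromosome X were the other members over 100 kb with no peak in either list.

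Among deubiquitinases, USP25 had the strongest member peak of either list. It spans 180571072 to 180571772 on chromosome 13, 53 bp inside an annotated end. Its fold was 4.47 (q 0.0164), from 13 fragments (6.92 to 22.2) over 2.13 expected. A flanking high-list peak had a fold of 3.17, and the low list had no peak within 10 kb. USP22, the deubiquitinase of the SAGA complex, which removes ubiquitin from histone H2B, had 3 high-list peaks. A flanking peak had 4.43 (q 0.0177), the gene-end peak 3.98 (q 0.0548) and an interior peak 3.01, and the low list again had none. USP25, USP22 and FBXO32 were the 3 members with a peak of q under 0.05 within 10 kb (1.88% of 160), against 3.6% of all genes. At gene ends alone 2 members passed, against 0.816% of all genes, and no low-list member peak did, where 0.0613% of all genes had such a peak within 10 kb.

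USP5, which takes apart free ubiquitin chains, followed with a gene-end fold of 3.41 (q 0.139) in a peak that also meets an end of CDCA3. USP19, an enzyme anchored in the endoplasmic reticulum, had 3.35 (q 0.139) in a peak of 822 bp that covers a gene end and meets LAMB2. Neither had a low-list peak within 10 kb. USP3, a histone H2A deubiquitinase, had 3.22 (q 0.232) at 1 end in the high list. At the opposite end lies FBXL22, 2.42 kb away, and its low-list peak counts within 10 kb for USP3 as well. The remaining high-list gene-end genes were OTUD7B, USP24, USP2, UCHL1, USP35, USP43 and USP8, with best folds of 2.21 to 3.09.

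USP49, another histone H2B deubiquitinase, was the single deubiquitinase with a low-list gene-end peak. That peak, 50 bp beyond the gene, had a fold of 2.49 (q 1) and was shared with an end of PRICKLE4; the high list had 3 interior peaks, of 3.12, 2.63 and 3.02. USP2, a rhythmically expressed enzyme, had 3 peaks in each list. Its high-list folds were 2.83, 2.83 and 2.90, and its low-list folds 2.80, 2.60 and 3.0. The nearest pair lay 979 bp apart, so USP2 had as many peaks in either liver, at positions that did not overlap.

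USP7, which stabilises MDM2 and p53, had 2 interior high-list peaks of 3.68 (q 0.139) and 3.25 (q 0.222). UCHL5, a proteasome-bound deubiquitinase, had 1 interior high-list peak of 2.34 (q 0.548). Neither gene had a low-list peak. OTUD7A, a gene of 317 kb, had 7 interior high-list peaks with folds of 2.34 to 3.55 and no low-list peak. UCHL3 and the X-linked OTUD5 and OTUD6A had no peak in either list.

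**Figure D2:**
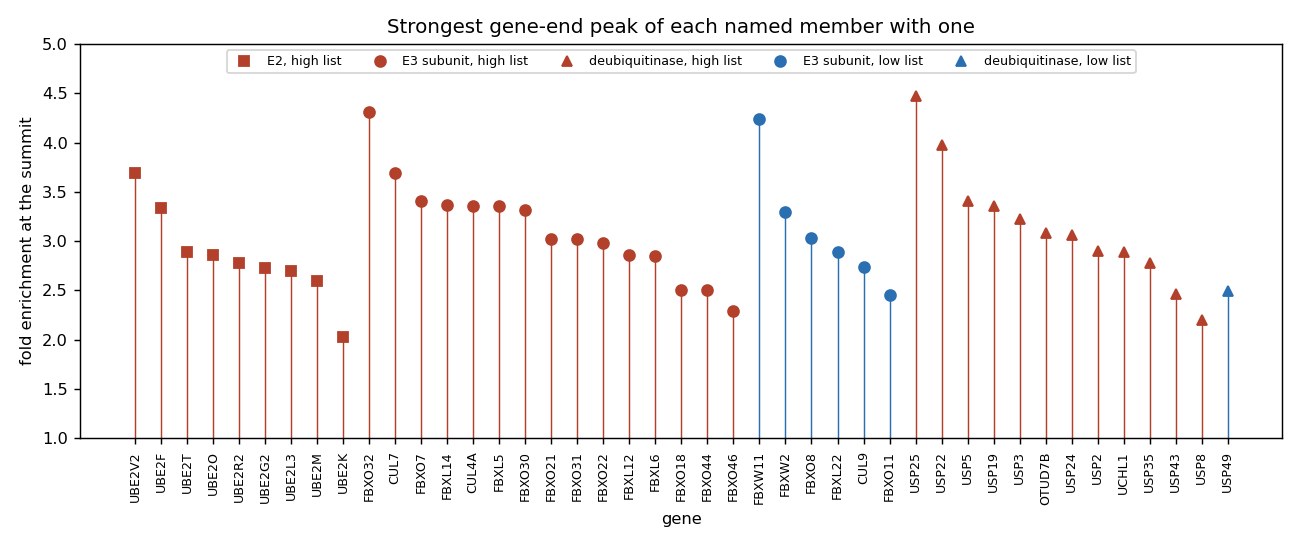
Fold enrichment at the summit (y axis, starting at 1) of the strongest gene-end peak of each member named in the text that has one, ordered by class; red is the high list, blue the low list, and the marker gives the class. USP25, FBXO32 and the low-list FBXW11 stand highest, at 4.47, 4.31 and 4.23, and no gene appears in both colours.

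Overlapping peaks of the lists were found at 2 members, or 1.25% of 160, against 1.18% of all genes. FBXL7, a gene of 410 kb on chromosome 16, had a high-list peak at 5192032 to 5192570 with a fold of 3.36 (q 0.232) and a low-list peak at 5192027 to 5192325 with 3.27 (q 1). Both lie inside the gene, near 1 end but outside the gene-end window. At OTUD3 the high-list peak spans 78252567 to 78253130 on chromosome 6, with a fold of 2.51 (q 0.5), and the low-list peak 78252498 to 78253171, with 2.53 (q 1). Both positions had like folds in both libraries. At the other 30 members called in both lists the peaks were apart, and over all 32 the median distance of the nearest pair was 9.23 kb. It was under 5 kb at 9 members, including FBXL7 and OTUD3, and largest at USP3, with 106 kb.

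A peak seen in a single list shows that the other library was not called there, and no more. Each was therefore set against the fewest fragments that the caller would accept in the other library over the same expected number, with a p limit of 0.01; the largest p was 0.00989 in both lists. Of 212 high-list member peaks without an overlap, 191 had at least that number, but none had an interval that lay at or above it. The same counts over all high-list peaks are not given here, so these are not read as a trait of the members. At USP25 the interval starts at 6.92 fragments and the low library needed 7. At FBXO32 it starts at 6.20, against 7. These fragment numbers are as counted and were not converted for depth, which was 7.37 fragments per kb in the low and 6.71 in the high library. A conversion would raise the high-library intervals, so some could then reach the limit. The comparison therefore does not decide, for any member, whether absence from the low list goes with lower occupancy. The lists do not hold the low library's counts at those positions.

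Of 50 low-list member peaks without an overlap, 2 had an interval at or above the limit of the high library. They were FBXW11, with 6.92 to 22.2 fragments against 6, and an interior peak of FBXL17 of fold 3.93 (q 1), with 12 fragments (6.20 to 21.0) against 6. The low library was the deeper of the immunoprecipitated libraries, at 7.37 against 6.71 fragments per kb, and its pileup was scaled by 0.881 in the caller, so it needs more fragments for a call. The low-library fragment numbers were not converted to the depth of the high library, and a conversion would lower their intervals. The FBXL17 interval starts at 6.20, close to the limit of 6, so it could fall under that limit. For FBXL17 the high list had 2 other interior peaks, of fold 2.90 and 3.36. The share of all low-list peaks with such an interval is not given here. How often such intervals arise among as many peaks was not tested.

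**Figure D3:**
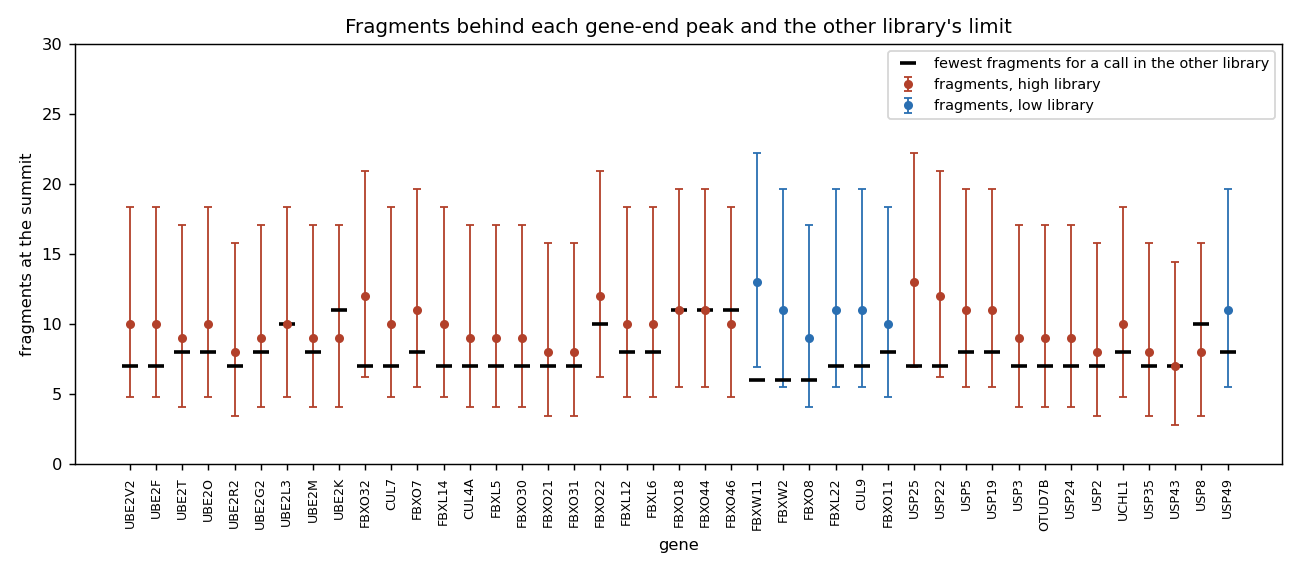
Fragments at the summit (y axis, with exact Poisson 95% intervals) of the strongest gene-end peak of each member named in the text, in the library that has the peak (red high, blue low); black bars mark the fewest fragments for a call in the other library. The intervals of all high-list genes shown reach below the bar, and of the low-list genes only that of FBXW11 does not. Fragment numbers are as counted and not converted for library depth.

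Member peaks resembled other peaks in height and width. High-list member peaks, 214 in number, had a median fold of 2.93 and a median of 9 fragments, against 2.90 and 9 over the whole list. The 52 low-list member peaks had 3.0 and 10, against 2.98 and 10. Folds recur between peaks: 214 peaks had 100 different folds, and a fold of 3.02 from 8 fragments was the most frequent, at 14 peaks. With 6 to 14 fragments behind every high-list member peak, order among neighbouring folds is within counting error. At gene ends the high list had 40 pairs of a member and a peak, of which 28 overlap the gene and 9 cover an annotated end. At 8 of the 37 genes (21.6%) the peak also met the end of another named coding gene, against 24.3% of all genes with a high-list gene-end peak.

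**Figure D4:**
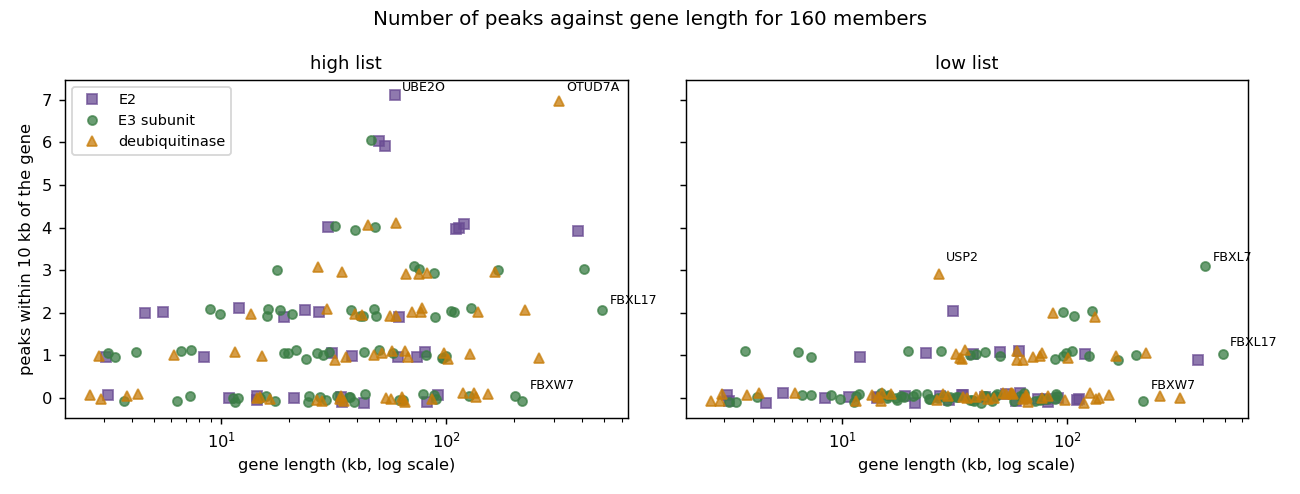
Number of peaks within 10 kb (y axis, points spread slightly so that they do not hide each other) against gene length in kb (x axis, log scale) for the 160 members, high list on the left and low list on the right, with the marker giving the class. UBE2O and OTUD7A have 7 high-list peaks at very different lengths, and FBXW7 has none at 217 kb.

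Other parts of the system were counted from lists set by role, which share 2 genes, UBE2F and UBE2M, with the members. For gene-end peaks the shares of all genes were, as above, 18.4% (high list) and 3.58% (low list). Of 39 proteasome genes, 10 had a high-list gene-end peak (25.6%) and 0 a low-list one; the 10 had folds of 2.08 to 3.38, led by PSMD4, a ubiquitin receptor of the proteasome. Of 21 other cullin adaptors, 4 had a high-list gene-end peak, BTRC, CRBN, DDB1 and KLHL2, and 0 a low-list one. Of 22 neddylation and COP9 genes, UBE2F, UBE2M and GPS1 had a high-list gene-end peak (3 genes) and DCUN1D5 a low-list one (1 gene). Of 16 HECT-type E3 genes, NEDD4L alone had a high-list gene-end peak (1 gene), and 0 had a low-list one.

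Of 21 other deubiquitinases, 4 had a high-list gene-end peak, CYLD, JOSD1, OTUB2 and YOD1, and 3 a low-list one, BAP1, JOSD1 and TNFAIP3. JOSD1 was called in both lists at separate positions, with folds of 2.62 and 3.99. Of 7 E1 and ubiquitin genes, 2 had a high-list gene-end peak, UBA7 among them, and 1 a low-list one.

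The cell type label was read from marker genes, although a peak is no measure of expression. Of 10 hepatocyte markers, 1 had a high-list gene-end peak, TTR, and 6 a peak within 10 kb (60%), against 62.8% of all genes; in the low list these were 0 and 1. Of markers of other liver and blood cells, 1 of 5 endothelial, 1 of 5 lymphocyte and 1 of 4 erythroid genes had a high-list gene-end peak, CDH5, CD79B and SLC4A1. None of 4 cholangiocyte, 5 Kupffer and myeloid or 5 stellate and fibroblast markers did. Within 10 kb the high list had a peak at 5 of 5 endothelial, 4 of 5 stellate and fibroblast, 3 of 5 Kupffer and myeloid, 3 of 5 lymphocyte, 1 of 4 erythroid and 0 of 4 cholangiocyte markers, and the low list at 1 of each list except lymphocytes, with 2. The low list had 0 gene-end peaks over all these markers. These counts do not tell which cells the fragments came from, and their part in the results was not tested.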

How the data were processed

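H4K12la was measured by ChIP sequencing in 2 immunoprecipitated libraries, 1 for each bile acid group, beside 1 input library each. The authors deposited narrow peaks called separately for each library; the submitters' processing notes name MACS2 2.1.0, Bowtie 1.1.2, Trimmomatic 0.33 and bcl2fastq 2.17. For each peak the authors deposited a fold, a p-value and a q-value on the −log10 scale, and a display score that was not used. The fold was read as the summit's pileup over its local background, with 1 added to both. In the low library the pileup is the fragment number scaled by 0.881, and the expected number is on that scale. Fold is therefore not the fragment number divided by the expected number. The other deposited column is the distance of the summit from the peak start. Both hg38 and Sscrofa11.1 are named in the notes; pig coordinates (Sscrofa11.1) were used.

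Peaks were assigned to RefSeq gene spans by an overlap of at least 1 bp, with Python 3.11.15, pandas 2.3.3 and scipy 1.17.1. Fragments at each summit were recovered from its fold and p-value, within 0.002 in −log10 p, after a check on simulated data; whole numbers came out for 99.98% (low list) and 99.99% (high list) of the peaks. The caller had scaled the low library by 0.881. The lowest expected pileup gave 7.37 fragments per kb in the low and 6.71 in the high library, a kb counted by the caller's genome size. Shares carry exact Clopper-Pearson and fragments exact Poisson 95% intervals, which cover counting error only. With 1 library per group no test between groups was run. The alternatives were stricter peaks, other windows, other overlap rules and lists of equal length.

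The members and lists were chosen with earlier results of these data known. The genes named are 10 fixed genes (CUL1, CUL3, SKP1, SKP2, RBX1, FBXW7, FBXW11, USP7, UCHL5 and UBE2D3), all members with a low-list gene-end peak, with overlapping peaks of the lists or with a gene-end q under 0.05, the 5 of highest high-list gene-end fold in each class (ties kept), and the 2 with most peaks in each list. Others were named after their values were seen, and the values of a few genes are not reported here singly. The annotation used gives no strand and no exons, and no sequence was used here, so the planned promoter motifs and start-only windows were not run.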

Additional observations from a re-analysis of the deposited data

How the results depend on the processing

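No paired analysis was possible because no group holds more than 1 immunoprecipitated sample. Counting by summit, by an overlap of 50% of the peak width, with a 3 kb window or with a distance of 5 kb kept every total within 1.5 times. At q under 0.05 the members with a gene-end, body and 10 kb peak numbered 2, 1 and 3 (high list) and 0, 0 and 0 (low list), with 0 in both. At a fold of at least 4 they numbered 2, 3 and 5 (high list) and 1, 1 and 1 (low list), with 0 in both. With the high list cut to the 5735 peaks of smallest p they numbered 10, 21 and 35, and 8 in both lists. With a 500 bp window 24 members had a high-list gene-end peak. Over all genes, high-list gene-end shares under these 4 settings were 0.816%, 0.994%, 5.19% and 13.0%. Under the first 3, high-list body shares of all genes were 2.16%, 2.93% and 16.1%. Within 10 kb they were 3.6%, 4.65% and 24.1%. As shares of 160, the member counts lay below all of these body and 10 kb values. In the main high-list counts, members lay above all genes there. At gene ends the member shares stayed above those of all genes. These differences were not tested. The falls in number follow from fewer peaks or a smaller window. By class, where the alternatives were added after the data were seen, every high-list count fell by over 1.5 times at q under 0.05, at a fold of at least 4 and in the shortened list, as did the low-list counts of E3 subunits and deubiquitinases in the first 2 of these. E2 genes moved from 9 to 4 with a 500 bp and to 15 with a 3 kb window in the high list and stayed at 0 in the low list; low-list deubiquitinases went from 1 to 2 with a 3 kb window, and the other class counts stayed within 1.5 times. A tolerance 10 times smaller for whole fragments can only drop peaks. It could therefore not change the number of high-list-only members above the low library's limit, which was 0, and is no check of it. Depth limits single genes: no member peak rested on more than 14 fragments.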
